A study of Mus musculus with 16 samples.

Results

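Plac9a, Tmem254a, Tmem254c, Duxbl2, Lrmda, Entpd4, Ide, Wdfy1, Efcab7 and Clec1b are 10 of the 15394 genes measured here. They were listed because knockout and wild type cells seemed to differ in them before any TGF-β1 was given, in the manner of a strain or copy-number difference, and because several lie side by side on chromosome 14. They were thus selected on the vehicle gap, knockout minus wild type, and that gap is given as a description without a test. The vehicle arrays also enter the tests of TGF-β1 against vehicle and of the difference between gaps, so the choice of genes favours a vehicle gap that shrinks with TGF-β1, and TGF-β1 changes that go opposite ways in the genotypes. The question asked of them was whether the gap between the genotypes was the same with and without TGF-β1. On the brightest probe of each gene the 95% interval of the difference stayed within 0.30 log2 units for Lrmda and within 0.20 for Ide. On dimmer probes it reached -0.37 for Lrmda and 0.42 for Ide. The gap differed by test for Plac9a, Tmem254a, Tmem254c, Entpd4, Wdfy1 and Clec1b. For Duxbl2 and Efcab7 the test did not pass, the intervals were wide, and the call changed under some alternatives. For Lrmda and Ide it did not pass either, and the Lrmda call changed when some single arrays were left out.

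Expression was profiled on Agilent arrays of 1 colour. The cells were primary lung fibroblasts, freed from the lungs of mice labelled female and 8 weeks old by enzymes and grown in culture. They came from Meflin knockout mice, which lack the gene Islr, a membrane-anchored protein of fibroblasts, or from wild type C57BL/6J mice. The strain of the knockout mice and the kind of allele are not given in the sources used here. The 4 groups, of 4 arrays each, were knockout with recombinant TGF-β1 at 5 ng/ml for 48 h, wild type with TGF-β1, knockout with vehicle and wild type with vehicle. The deposited design states 4 independent experiments per group but ties no array to a mouse, so p-values reflect array-to-array spread, which may be technical, and precision is limited by having 4 arrays a group.

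Genotype gaps at loci unrelated to the deleted gene are a known feature of mouse knockout studies. Inbred colonies kept apart drift, and copy-number variants, in which a stretch of DNA is repeated or lost, are among the differences that arise. A gene held in fewer copies tends to give less RNA under every condition, whereas a gene that answers to the mutation can differ in some conditions only. Colonies of C57BL/6J itself are known to segregate a copy-number variant that holds Ide and Fgfbp3, a nearby gene that is not directly adjacent in the annotation.

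The targeted gene matched the labels. Islr had log2 signals of 1.76 ± 0.07 (SD, n = 4) in knockout and 8.34 ± 0.08 in wild type cells with TGF-β1, and 1.45 ± 0.16 in knockout and 10.82 ± 0.06 in wild type cells with vehicle. No knockout array lay well above background, so Islr was at least 19.7-fold lower with TGF-β1 and at least 138-fold lower with vehicle (limma, adjusted p = 6.35e-18 and adjusted p = 1.6e-19). Its 1 probe may lie outside the deleted part. All 8 fibroblast markers, collagen and decorin genes among them, were well above background in every group. The 75th percentile of array intensity was 382 to 446 in knockout and 429 to 452 in wild type cells with TGF-β1, and 470 to 519 in knockout and 486 to 526 in wild type cells with vehicle. Arrays of a group correlated at r of at least 0.996 across genes.

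The genes of chromosome 14 came first because their place bears on what the probes can tell. In the RefSeq annotation of the mouse build GRCm38.p6 a segment is present in 3 copies in a row. The first holds Plac9a, Tmem254a, Cphx1 and Duxbl1, the second Gm9780, Tmem254c, Cphx2 and Duxbl2, and the last Plac9b, Tmem254b, Cphx3 and Duxbl3. Plac9 genes encode a small secreted protein first found in placenta, Tmem254 genes a small membrane protein, and Cphx and Duxbl genes homeobox proteins. RefSeq promoter windows of 300 bases around a gene's start were found for 6 of the 10 listed genes. Promoters of the copies are printed because they were identical wherever the windows overlapped, all on the minus strand of GRCm38.p6. Capitals mark the run of letters that all printed copies of a gene share.

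Plac9a, chr14:25902844-25903143: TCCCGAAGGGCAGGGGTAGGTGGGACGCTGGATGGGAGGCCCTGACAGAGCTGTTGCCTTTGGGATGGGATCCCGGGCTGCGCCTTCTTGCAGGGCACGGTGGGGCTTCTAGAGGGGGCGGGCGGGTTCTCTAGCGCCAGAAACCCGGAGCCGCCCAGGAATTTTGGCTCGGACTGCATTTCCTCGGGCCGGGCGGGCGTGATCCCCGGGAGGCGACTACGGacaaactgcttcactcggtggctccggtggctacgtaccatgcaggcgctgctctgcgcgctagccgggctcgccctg

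Plac9b, chr14:26182302-26182601: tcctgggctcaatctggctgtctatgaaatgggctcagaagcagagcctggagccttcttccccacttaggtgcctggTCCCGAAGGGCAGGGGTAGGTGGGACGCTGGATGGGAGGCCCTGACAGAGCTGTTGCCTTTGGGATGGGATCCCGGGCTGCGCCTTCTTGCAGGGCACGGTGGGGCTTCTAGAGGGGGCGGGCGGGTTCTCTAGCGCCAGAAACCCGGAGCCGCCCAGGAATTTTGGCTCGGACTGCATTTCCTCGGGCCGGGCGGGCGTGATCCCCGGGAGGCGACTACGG

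Tmem254a, chr14:25927623-25927922: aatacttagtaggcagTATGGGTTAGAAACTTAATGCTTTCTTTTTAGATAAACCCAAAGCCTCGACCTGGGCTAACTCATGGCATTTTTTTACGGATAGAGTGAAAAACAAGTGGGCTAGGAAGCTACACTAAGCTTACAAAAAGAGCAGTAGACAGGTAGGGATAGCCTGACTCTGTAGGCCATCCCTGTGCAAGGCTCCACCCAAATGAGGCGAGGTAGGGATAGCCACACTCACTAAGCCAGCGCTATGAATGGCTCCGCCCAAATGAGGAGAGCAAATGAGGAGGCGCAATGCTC

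Tmem254c, chr14:26067376-26067675: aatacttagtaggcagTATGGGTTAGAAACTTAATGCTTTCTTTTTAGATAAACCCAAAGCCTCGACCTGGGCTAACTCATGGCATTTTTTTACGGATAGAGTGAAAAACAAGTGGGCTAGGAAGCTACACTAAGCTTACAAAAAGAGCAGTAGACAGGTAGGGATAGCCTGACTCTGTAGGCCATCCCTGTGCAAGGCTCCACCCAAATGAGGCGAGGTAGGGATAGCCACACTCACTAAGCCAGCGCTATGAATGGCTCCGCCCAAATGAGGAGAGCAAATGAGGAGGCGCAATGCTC

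Tmem254b, chr14:26206976-26207275: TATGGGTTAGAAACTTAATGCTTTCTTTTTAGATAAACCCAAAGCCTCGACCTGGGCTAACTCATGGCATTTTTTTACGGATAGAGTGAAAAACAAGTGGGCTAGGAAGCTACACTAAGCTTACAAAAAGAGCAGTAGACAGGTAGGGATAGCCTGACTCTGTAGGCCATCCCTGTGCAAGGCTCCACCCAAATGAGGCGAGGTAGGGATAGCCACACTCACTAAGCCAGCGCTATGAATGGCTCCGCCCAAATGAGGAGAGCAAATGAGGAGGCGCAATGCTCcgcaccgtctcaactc

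The windows of Tmem254a and Tmem254c matched over all 300 of 300 bases. Tmem254b shared a run of 284 bases with them, its window being set 16 bases off. Plac9a shared 222 bases with both Plac9b and Gm9780, whose own windows matched over 300 bases, and Cphx1 shared 296 with Cphx2 and Cphx3. The files hold no probe sequences, so a probe named for a copy may also read the others, and the signals of Plac9a, Tmem254a, Tmem254c and Duxbl2 are uncertain as to copy. Plac9b, Tmem254b, Duxbl3, Cphx2 and Cphx3 had no named probe in the tests, and neither Duxbl1 nor Cphx1 passed the filter on dim probes.

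Plac9a kept part of its gap. Its log2 signals were 11.72, 11.90, 11.93 and 11.93 in knockout and 12.60, 12.79, 12.84 and 12.78 in wild type cells with TGF-β1. With vehicle they were 12.82, 12.97, 13.02 and 13.03 in knockout and 14.54, 14.51, 14.50 and 14.47 in wild type cells. Every knockout array lay below every wild type array under the same treatment. With TGF-β1 the gap, knockout minus wild type, was -0.89 ± 0.06 (SE; limma with Benjamini-Hochberg adjustment over all genes, adjusted p = 6.89e-09), against a vehicle gap of -1.54 ± 0.06. Knockout signal was thus 54.1% of wild type with TGF-β1 and 34.3% with vehicle. The gap with TGF-β1 minus that with vehicle, called the interaction here, was 0.66 ± 0.09 (adjusted p = 1.39e-05).

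Tmem254a and Tmem254c turned opposite ways in the genotypes. Tmem254a had log2 signals of 10.49, 10.56, 10.70 and 10.61 in knockout and 10.98, 10.91, 11.16 and 11.08 in wild type cells with TGF-β1. With vehicle the values were 10.17, 10.21, 10.16 and 10.24 in knockout and 11.53, 11.69, 11.67 and 11.53 in wild type cells. TGF-β1 raised it by 0.40 ± 0.06 in knockout cells (adjusted p = 1.6e-05) and changed it by -0.57 ± 0.06 in wild type cells (adjusted p = 6.3e-07), with no overlap between treated and vehicle arrays in either genotype. Its gap was -0.44 ± 0.06 with TGF-β1 (adjusted p = 8.64e-06) and -1.41 ± 0.06 with vehicle, an interaction of 0.97 ± 0.08 (adjusted p = 1.65e-07). A dimmer probe of Tmem254a gave gaps of -0.48 ± 0.07 and -1.34 ± 0.07.

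Tmem254c, on a separate probe, followed the same course. Its log2 signals were 10.52, 10.38, 10.47 and 10.51 in knockout and 10.86, 10.94, 10.90 and 10.83 in wild type cells with TGF-β1. With vehicle they were 10.07, 10.18, 10.09 and 9.98 in knockout and 11.33, 11.39, 11.39 and 11.30 in wild type cells, and no 2 groups overlapped. The means were 10.47 ± 0.06 (SD, n = 4) in knockout and 10.88 ± 0.05 in wild type cells with TGF-β1, and 10.08 ± 0.08 in knockout and 11.35 ± 0.05 in wild type cells with vehicle. TGF-β1 raised it by 0.39 ± 0.05 in knockout cells (SE, adjusted p = 1.18e-06) and changed it by -0.47 ± 0.05 in wild type cells (adjusted p = 2.92e-07). Knockout signal was 75.1% of wild type with TGF-β1 (gap -0.41 ± 0.05, adjusted p = 1.03e-06) and 41.4% with vehicle (gap -1.27 ± 0.05), an interaction of 0.86 ± 0.06 (adjusted p = 3.48e-08). Tmem254a and Tmem254c are copies, and no probe sequences were at hand. Whether these probes are independent measurements therefore cannot be told, and the promoters printed above do not show what a probe reads.

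Duxbl2, a double homeobox gene, was dim. On the log2 scale its signals were 4.06, 4.47, 4.36 and 4.41 in knockout and 5.17, 5.29, 4.81 and 5.14 in wild type cells with TGF-β1. Vehicle gave 3.79, 4.23, 3.73 and 4.14 in knockout and 5.36, 5.25, 4.98 and 5.01 in wild type cells. The probe was well above background on all wild type arrays but on 3 of 4 knockout arrays with TGF-β1 and 2 of 4 with vehicle. It thus passed the filter on dim probes through the wild type groups, where it is high, and its gap supports nothing on its own. The gap was -0.78 ± 0.14 with TGF-β1 (adjusted p = 1.13e-04) and -1.18 ± 0.14 with vehicle. With normexp background correction the TGF-β1 gap was -0.10 (adjusted p = 0.0826) and the vehicle gap -0.25. The interaction of 0.40, with a 95% interval of -0.01 to 0.81, did not pass (adjusted p = 0.0858), but did without knockout TGF-β1 replicate 1 (adjusted p = 0.0388) or knockout vehicle replicate 2 (adjusted p = 0.0406), and in the authors' deposited values (0.62, adjusted p = 0.0264). TGF-β1 raised Duxbl2 by 0.35 ± 0.14 in knockout cells (adjusted p = 0.0255), a call lost within slide 1 (adjusted p = 0.231) and without knockout TGF-β1 replicate 2, 3 or 4 or knockout vehicle replicate 1 or 3, with adjusted p = 0.0865 at the highest of these.

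**Figure D1:**
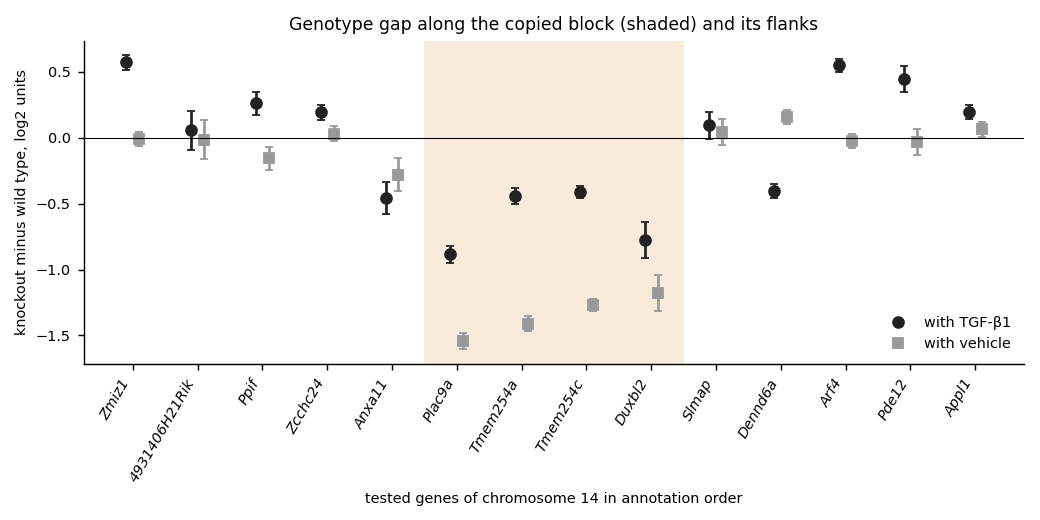
Gap between genotypes (knockout minus wild type, log2 units) with TGF-β1 (black circles) and vehicle (grey squares) for the repeated genes (shaded) and the 5 nearest tested genes on each side, in annotation order. Bars are standard errors. The repeated genes lie between -0.89 and -0.41 with TGF-β1 and between -1.54 and -1.18 with vehicle, and the flanking genes lie between -0.28 and 0.16 with vehicle.

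Plac9a, Tmem254a, Tmem254c and Duxbl2 took ranks 86, 87, 88 and 89 among the 537 tested genes of chromosome 14. The flanking genes Zmiz1, 4931406H21Rik, Ppif, Zcchc24 and Anxa11 on one side and Slmap, Dennd6a, Arf4, Pde12 and Appl1 on the other had vehicle gaps from -0.28 to 0.16. With TGF-β1, 8 of these 10 flanking genes passed, 6 higher and 2 lower in knockout cells, where 70.2% of all genes passed (39.7% higher and 30.5% lower). The flanking genes that were lower were Anxa11, next to Plac9a, at -0.46 ± 0.12 (adjusted p = 0.00419) and Dennd6a at -0.40 ± 0.05 (adjusted p = 7.68e-06), gaps of the size seen in Tmem254a and Tmem254c. Of those higher, Zmiz1, a transcriptional coactivator, stood at 0.57 ± 0.05 and Arf4, a vesicle traffic GTPase, at 0.55 ± 0.05.

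Lrmda lies 10 tested genes away, at rank 76 of chromosome 14, and kept its gap. The gene encodes a leucine-rich protein of melanocyte differentiation, known from human albinism. Its log2 signals were 7.98, 8.17, 8.04 and 8.15 in knockout and 10.07, 10.14, 10.13 and 10.13 in wild type cells with TGF-β1. With vehicle they were 9.28, 9.29, 9.18 and 9.24 in knockout and 11.22, 11.09, 11.14 and 11.06 in wild type cells. No arrays of the groups overlapped. Knockout signal was 24.4% of wild type with TGF-β1 (gap -2.03 ± 0.05, adjusted p = 4.52e-14) and 27.1% with vehicle (gap -1.88 ± 0.05).

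TGF-β1 lowered Lrmda in both genotypes, by 1.16 ± 0.05 log2 units in knockout cells (-1.16, adjusted p = 6.1e-12) and 1.01 ± 0.05 in wild type cells (-1.01, adjusted p = 1.15e-10). The interaction was -0.15 ± 0.07, with a 95% interval of -0.30 to -0.004 (adjusted p = 0.0727). It passed when knockout TGF-β1 replicate 2 or 4 or wild type vehicle replicate 1 was left out (adjusted p = 0.0367, adjusted p = 0.0498 and adjusted p = 0.0331), at sizes of at most 0.18 in the negative direction (-0.18). All 3 Lrmda probes showed the gap, from -2.08 to -2.03 with TGF-β1 and from -2.01 to -1.84 with vehicle. Interactions of the dimmer probes were -0.21 (95% interval -0.37 to -0.04) and -0.07 (95% interval -0.28 to 0.13). The 10 nearest tested neighbours of Lrmda had vehicle gaps from -0.78, in Dusp13, to 0.17, in Dlg5. With TGF-β1 7 passed, 4 higher and 3 lower, where 70.2% of all genes passed (39.7% higher and 30.5% lower).

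Ide, on chromosome 19, encodes the zinc protease that degrades insulin and amyloid peptides. The log2 signals of Ide were 9.82, 9.91, 9.91 and 9.77 in knockout and 9.97, 10.20, 10.12 and 10.15 in wild type cells with TGF-β1. Values with vehicle were 9.88, 9.84, 9.81 and 9.93 in knockout and 10.18, 10.15, 10.20 and 10.16 in wild type cells. The genotypes did not overlap under either treatment, yet the gap was small, -0.26 ± 0.05 with TGF-β1 (adjusted p = 2.21e-04) and -0.31 ± 0.05 with vehicle. Within slide 1 the TGF-β1 gap was -0.22 (adjusted p = 0.0667). The interaction was 0.05 with a 95% interval of -0.10 to 0.20 (adjusted p = 0.553). A dimmer Ide probe gave -0.06 ± 0.09 with TGF-β1 and -0.21 ± 0.09 with vehicle, so the probes differed. The interaction on that probe was 0.14 (95% interval -0.13 to 0.42).

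Fgfbp3, which encodes a binding protein of fibroblast growth factors and is Ide's partner in the known C57BL/6J variant, did not keep a gap. It stood 0.14 ± 0.05 higher in knockout cells with TGF-β1 (adjusted p = 0.0113) and at -0.35 ± 0.05 with vehicle, an interaction of 0.49 (adjusted p = 1.11e-05). Btaf1, next to it, stood 0.16 ± 0.05 higher with TGF-β1 (adjusted p = 0.0066) and at -0.06 with vehicle.

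Entpd4, on chromosome 14 at rank 404, encodes a nucleotide-splitting enzyme of the Golgi and lysosomes. Entpd4 had log2 signals of 12.00, 11.97, 11.95 and 11.99 in knockout and 12.15, 12.18, 12.25 and 12.15 in wild type cells with TGF-β1. Vehicle arrays gave 11.41, 11.47, 11.46 and 11.53 in knockout and 12.17, 12.14, 12.14 and 12.20 in wild type cells. Knockout arrays with vehicle stood apart from all others. TGF-β1 raised Entpd4 by 0.51 ± 0.03 in knockout cells (adjusted p = 1.77e-09), while wild type cells gave 0.02 ± 0.03 (95% interval -0.05 to 0.09, adjusted p = 0.631). The gap was -0.20 ± 0.03 with TGF-β1 (adjusted p = 8.97e-05) and -0.69 ± 0.03 with vehicle, an interaction of 0.49 ± 0.05 (adjusted p = 7.06e-07). The other probes of Entpd4 gave -0.22 ± 0.05 and -0.37 ± 0.12 with TGF-β1, and -0.84 ± 0.05 and -0.81 ± 0.12 with vehicle.

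A pair of dim transcripts with no stated function lies beside Entpd4. Gm16867, which overlaps Entpd4 in the annotation, was well above background on 0 of 4 knockout and 4 of 4 wild type arrays under both treatments. Gm31896, 2 tested genes before Entpd4, was above background on all 4 wild type vehicle arrays and on 0 arrays of the other groups. Loxl2, a matrix crosslinking enzyme on the other side of Gm16867, stood 1.12 higher in knockout cells with TGF-β1 (adjusted p = 4.25e-09) and 0.29 higher with vehicle. RefSeq also lists a copy, Entpd4b, which had no named probe here.

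Clec1b, on chromosome 6, encodes CLEC-2, the receptor through which platelets and some myeloid cells bind podoplanin. Its log2 signals were 7.78, 7.86, 7.83 and 7.79 in knockout and 8.08, 8.34, 8.25 and 8.42 in wild type cells with TGF-β1. In vehicle arrays they were 8.66, 8.74, 8.55 and 8.70 in knockout and 10.26, 10.10, 10.33 and 10.33 in wild type cells. The 4 groups did not overlap. TGF-β1 lowered it in both genotypes, with a change of -0.84 ± 0.07 in knockout cells (adjusted p = 1.84e-08) and -1.98 ± 0.07 in wild type cells (adjusted p = 3.19e-12). The gap was -0.45 ± 0.07 with TGF-β1 (adjusted p = 3.22e-05) and -1.59 ± 0.07 with vehicle, and the interaction of 1.14 ± 0.10 was the largest of the 10 genes (adjusted p = 1.56e-07).

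Markers of other blood cells moved beside Clec1b. All 9 macrophage and leukocyte markers were well above background in every group. Their summed linear level was 50720 to 55502 in knockout and 70305 to 74904 in wild type cells with TGF-β1, and 105855 to 109777 in knockout and 126142 to 146758 in wild type cells with vehicle. This is the order of the groups for Clec1b and for Plac9a, and also that of the endothelial sum given at the end. With TGF-β1, 6 of the 9 macrophage and leukocyte markers passed as lower and 1 as higher in knockout cells, at a median of -0.65. Of all genes 30.5% passed as lower and 39.7% as higher. Some single markers differed from the sum, with Itgam 0.26 higher in knockout cells with TGF-β1 (adjusted p = 3.37e-04) and Csf1r and Adgre1 at 0.04 and -0.07. Of 9 platelet and megakaryocyte markers 5 were above background in every group, while Ppbp, Gp9 and Gp1ba were below it on all arrays. Their sum was 3845 to 4093 in knockout and 7047 to 7851 in wild type cells with TGF-β1, and 6425 to 7055 in knockout and 5704 to 6476 in wild type cells with vehicle, an order that differs from that of Clec1b. Pf4 made up most of that sum, while Treml1 followed the order of Clec1b, at 5.88 in knockout and 6.54 in wild type cells with TGF-β1 and 7.12 in knockout and 7.57 in wild type cells with vehicle. The part of these cells in the Clec1b and Plac9a results was not tested. Fewer cells of a type and less RNA per cell cannot be told apart in such bulk samples.

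Genes around Clec1b, in the cluster of C-type lectin receptors, all had vehicle gaps on the same side as Clec1b, from -0.73 to -0.23, and differed in direction with TGF-β1. With TGF-β1, Clec12a, an inhibitory receptor of myeloid cells, stood at -3.57 ± 0.08, Clec2d at -1.43 ± 0.11, and Olr1, a receptor for oxidised lipoprotein, at 1.50 ± 0.07. Of 10 neighbours 6 passed with TGF-β1, 1 higher and 5 lower, Clec1a among the lower although it was below background on all arrays with TGF-β1. Over all genes 70.2% passed, 39.7% higher and 30.5% lower.

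The Wdfy1 probe that stands for the gene had no vehicle gap. This chromosome 1 gene encodes an endosomal adaptor with WD repeats and a FYVE domain, linked to signalling by the receptors TLR3 and TLR4. Its log2 signals were 10.61, 10.57, 10.50 and 10.47 in knockout and 9.80, 9.80, 9.89 and 9.90 in wild type cells with TGF-β1. With vehicle they were 9.59, 9.62, 9.63 and 9.59 in knockout and 9.61, 9.62, 9.61 and 9.59 in wild type cells. The genotypes overlapped with vehicle, at a gap of 0.00 ± 0.04, and did not overlap with TGF-β1, at 0.69 ± 0.04 (adjusted p = 3.36e-10). TGF-β1 raised it by 0.93 ± 0.04 in knockout and 0.24 ± 0.04 in wild type cells (adjusted p = 3.11e-12 and adjusted p = 3.3e-05), an interaction of 0.69 ± 0.05 (adjusted p = 4.02e-08). A further Wdfy1 probe had a gap of 0.39 ± 0.07 with TGF-β1 and of -0.25 ± 0.07 with vehicle, the sign turning and the genotypes apart in both. On that probe TGF-β1 gave a change of 0.58 ± 0.07 in knockout and -0.07 ± 0.07 in wild type cells. The last probe had gaps of 0.89 ± 0.04 with TGF-β1 and 0.07 ± 0.04 with vehicle, and TGF-β1 changes of 1.42 ± 0.04 in knockout and 0.59 ± 0.04 in wild type cells.

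Efcab7, on chromosome 4, was the gene higher in knockout cells with vehicle. It encodes a protein that holds the EVC complex at the base of the primary cilium, where Hedgehog signals are passed on. Efcab7 had log2 signals of 8.85, 7.41, 7.77 and 7.61 in knockout and 7.36, 7.40, 7.48 and 7.46 in wild type cells with TGF-β1. Vehicle arrays had 7.52, 7.81, 7.54 and 7.88 in knockout and 6.51, 6.44, 6.64 and 6.74 in wild type cells. With TGF-β1 the genotypes overlapped, and on this probe knockout replicate 1 stood far above the others. The gap was 0.49 ± 0.22 with TGF-β1 (adjusted p = 0.0643) and 1.1 ± 0.22 with vehicle, knockout signal being 140% and 215% of wild type. A dimmer probe had 4.97, 4.83, 4.79 and 4.41 in knockout cells with TGF-β1, where replicate 1 was close to the next. That probe was well above background on all knockout arrays but on 3 of 4 wild type arrays under each treatment. Its gaps were 0.53 ± 0.23 with TGF-β1 and 0.99 ± 0.23 with vehicle, and its interaction -0.46 (95% interval -1.16 to 0.24).

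On the brighter probe the interaction of Efcab7 was -0.62 ± 0.32 (95% interval -1.29 to 0.06, adjusted p = 0.108). Without knockout TGF-β1 replicate 1 the gap with TGF-β1 was 0.17 and the interaction -0.93 (adjusted p = 8.2e-05). It also passed with normexp (-0.59, adjusted p = 9.58e-05) and within slide 2 (-0.79, adjusted p = 0.0107). Without knockout TGF-β1 replicate 2 or 4 the TGF-β1 gap passed (adjusted p = 0.0164 and adjusted p = 0.0429). TGF-β1 raised Efcab7 by 0.84 ± 0.22 in wild type cells (adjusted p = 0.00379; 0.90 and adjusted p = 0.104 within slide 1), and knockout cells gave 0.22 ± 0.22 (adjusted p = 0.365).

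**Figure D2:**
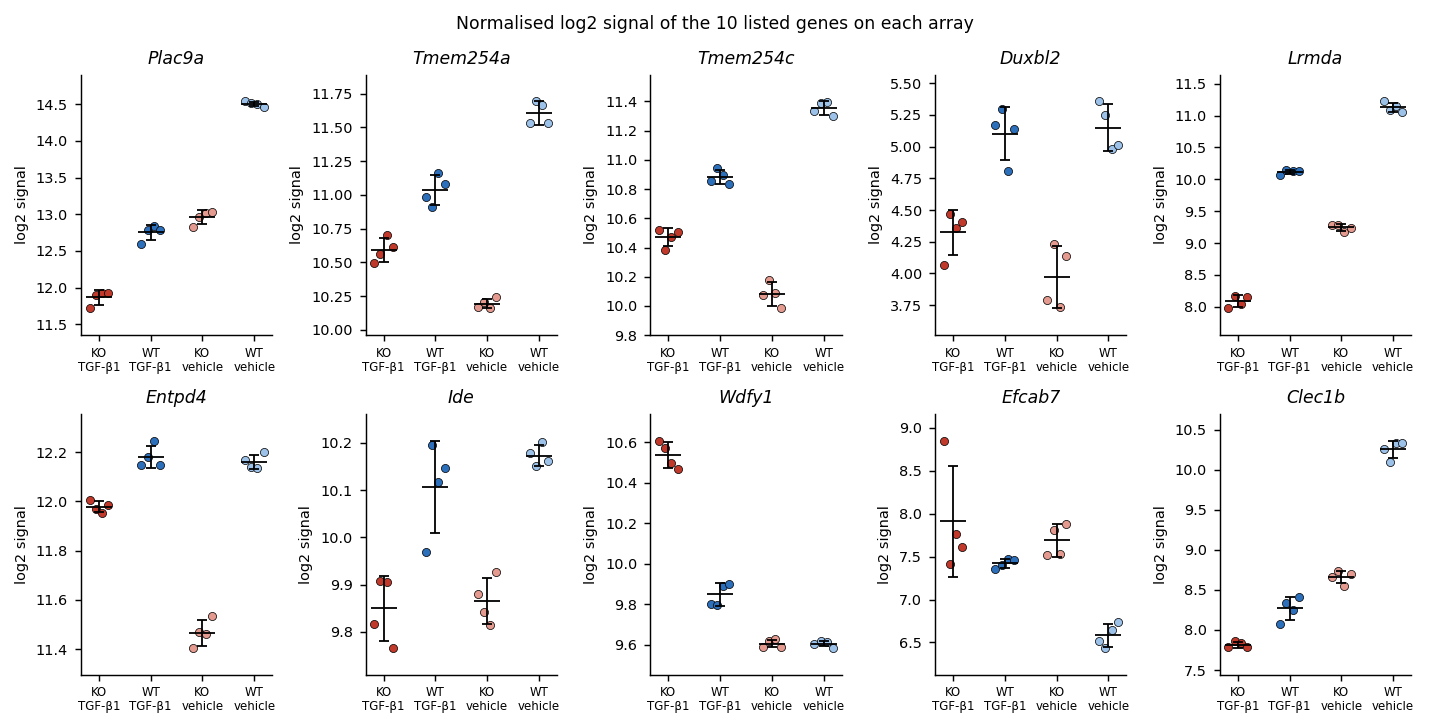
Normalised log2 signal of each gene on each of the 16 arrays, by group, with knockout and wild type cells given TGF-β1 on the left and given vehicle on the right of each panel. Points are arrays and bars mean ± SD over 4 arrays. On the probes shown, Wdfy1 separates the genotypes with TGF-β1 and overlaps with vehicle, Lrmda separates them under both treatments, and 1 knockout TGF-β1 array of Efcab7 stands at 8.85.

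Counted together, 9 of the 10 genes passed between genotypes with TGF-β1, 8 lower and 1 higher in knockout cells, where 70.2% of all tested genes passed (30.5% lower and 39.7% higher). The lower share is to be read with the choice of genes that were mostly lower with vehicle, and with Duxbl2 kept through its wild type arrays. With the slide as a block 9 passed as well, and 8 and 9 did within slides 1 and 2, where the gap of Lrmda was -2.03 and -2.04. The median gap of the 10 genes was -0.43, against 0.06 over all genes. Of all genes 10.4% had a TGF-β1 gap of at least 1 log2 unit, and of the listed genes 1, Lrmda, did. With vehicle, where the genes were chosen and 13.2% of all genes passed the test, 56 genes (0.364%) had a gap of at least 1 log2 unit, among them 6 of the listed genes that were lower and Efcab7, which was higher.

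The interaction passed for 6 of the 10 genes, all positive, where 58.3% of all genes passed (31.9% positive and 26.5% negative). The vehicle arrays enter this test and also chose the genes, so its direction is no independent support. With the slide as a block 6 passed, and 6 and 7 did within slides 1 and 2, where the interaction was 0.74 and 0.57 for Plac9a, 1.01 and 0.93 for Tmem254a, and -0.16 and -0.15 for Lrmda. Of the 39 genes at least 1 log2 unit lower with vehicle that are neither listed nor Islr, 33 had a smaller gap with TGF-β1, at a median of 45.8% of the vehicle gap. The 6 listed genes past that size kept a median of 45.0%, and 5 of 6 had a smaller gap. Lrmda kept 108%, Duxbl2 66.0%, Plac9a 57.4%, Tmem254c 32.5%, Tmem254a 31.3% and Clec1b 28.5%, on the log2 scale. The value of Duxbl2, which enters that median, is limited by its dim knockout arrays. With normexp its gaps were -0.10 with TGF-β1 and -0.25 with vehicle.

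**Figure D3:**
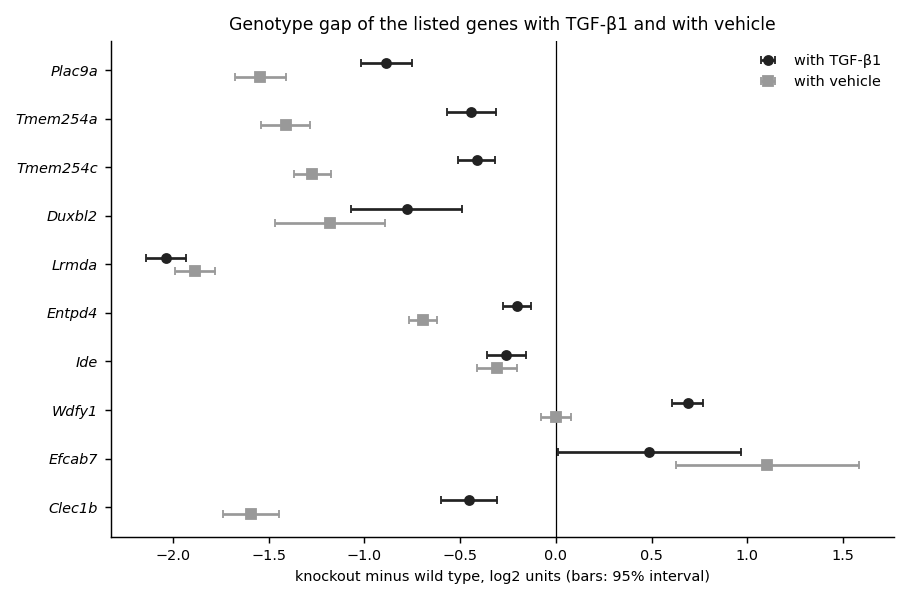
Gap between genotypes (knockout minus wild type, log2 units) of the 10 genes with TGF-β1 (black) and vehicle (grey), with 95% intervals. The intervals of Lrmda, Ide, Duxbl2 and Efcab7 overlap between treatments, those of Duxbl2 and Efcab7 being wide. Tmem254a lies at -0.44 with TGF-β1 and -1.41 with vehicle.

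A gap of at least 1 log2 unit under both treatments, on the same side, was seen in 13 of 15394 genes, Islr and Lrmda included. In 2 of these the 95% interval of the interaction lay within 0.5 log2 units of 0, Lrmda and F7. F7 encodes coagulation factor VII and lies on chromosome 8. It averaged 7.82 in knockout and 9.10 in wild type cells with TGF-β1, and 9.11 in knockout and 10.12 in wild type cells with vehicle. Its gap with TGF-β1 was -1.29 and its interaction was -0.28 (95% interval -0.48 to -0.09).

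**Figure D4:**
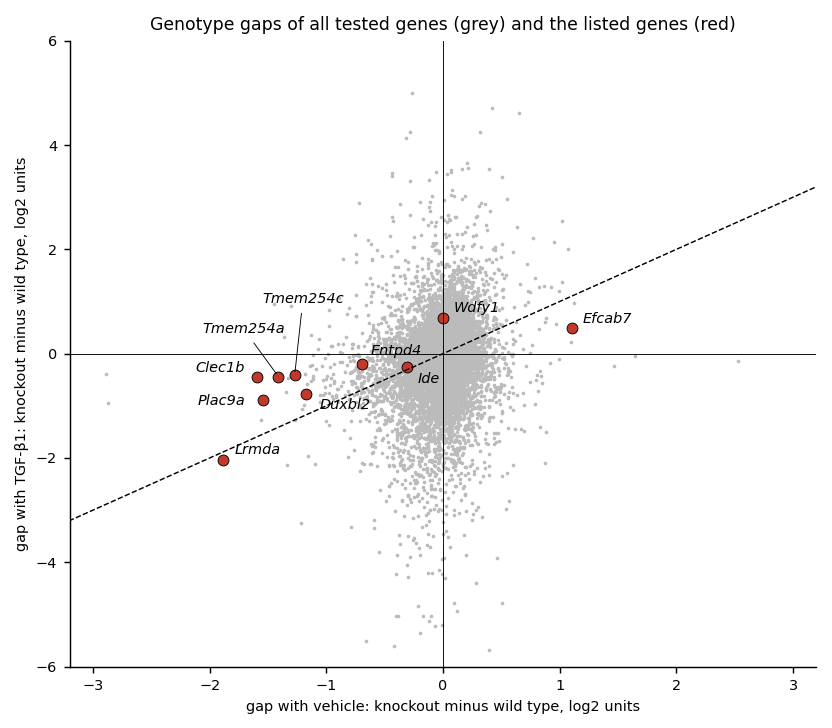
Gap between genotypes with vehicle (horizontal) and with TGF-β1 (vertical), in log2 units, for 15383 tested genes (grey, Islr left out, 5 beyond the axes) and the 10 listed genes (red). The dashed line marks equal gaps. Lrmda and Ide lie close to it, Plac9a, Tmem254a, Tmem254c and Clec1b lie above it, and Wdfy1 lies on the vertical axis.

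The cytokine changed 8 of the 10 genes in knockout cells, 5 upward and 3 downward, where 82.6% of all genes changed (46.6% upward and 35.9% downward). It changed 7 in wild type cells, 2 upward and 5 downward, where 68.6% changed (41.3% upward and 27.3% downward). Plac9a, Lrmda and Clec1b fell in both genotypes. Wdfy1 rose in both on the probe standing for it, while another of its probes did not rise in wild type cells (-0.07, 95% interval -0.22 to 0.09). The medians of the 10 genes were 0.29 in knockout and -0.27 in wild type cells, against 0.10 and 0.08 over all genes.

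Genes next to the listed ones passed about as often as genes overall. Of 69 tested neighbours, 5 on each side, 47 (68.1%) passed between genotypes with TGF-β1, 27 higher and 20 lower, at a median of 0.10. Around Islr on chromosome 9, where flanking DNA of the targeted allele would lie, 5 of 10 neighbours passed, 2 higher and 3 lower, and vehicle gaps ran from -0.38 to 0.09. Of 13 genes listed as differing between C57BL/6 substrains or related strains 9 were tested, and 8 passed with TGF-β1, 4 higher and 4 lower, where 70.2% of all genes passed. With vehicle 4 of the 9 passed (44.4%, against 13.2% of all genes), all lower in knockout cells. They ran from Cyfip2 at -0.56 to Casp4 at -0.27, and none of the 9 reached 1 log2 unit. Fgfbp3, which is also a neighbour of Ide, was among those that passed. This share was not particular to them. It was also 4 of 9, all lower, for macrophage and leukocyte markers and for genes of podoplanin and platelet receptor signalling. It was 3 of 8, all lower, for endothelial markers and 0 of 11 for genes of TLR3 and TLR4 signalling. Nnt, Crb1, Nlrp12 and Pdzk1 did not pass the filter on dim probes.

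Relatives and pathway partners were also measured with TGF-β1. Counts are to be read against the 70.2% of all genes that passed, 30.5% lower and 39.7% higher. Among 5 tested relatives of the 10 genes Wdfy2 (-0.49 ± 0.05) and Wdfy4 (-0.69 ± 0.07) were lower in knockout cells, and Clec1a was below background on all arrays with TGF-β1. Of 14 ciliary Hedgehog genes 7 were lower and 1 higher (57.1% in all), with the co-receptor Gas1 at -2.53 ± 0.08 and the transcription factor Gli1, itself a Hedgehog target, at -1.50 ± 0.20. Of 9 genes of podoplanin and platelet receptor signalling 7 were lower and 0 higher, with the kinase Syk at -0.89 ± 0.06. Of 11 genes of TLR3 and TLR4 signalling 6 were lower and 1 higher, with Tlr4 at -1.02 ± 0.07 and its co-receptor Cd14 at -1.19 ± 0.05.

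The remaining partners split in direction. Of 10 genes of nucleotide hydrolysis 5 were higher and 4 lower, with the surface enzyme Entpd2 at -2.01 ± 0.07 and Entpd6 at 0.56 ± 0.09. Of 11 genes of insulin and peptide degradation 3 were higher and 5 lower, with the peptidase Mme at -2.18 ± 0.10 and the mitochondrial peptidase Pitrm1, a relative of Ide, at 0.65 ± 0.03. Of 9 melanosome and pigment cell genes 2 were higher and 3 lower, with Mlana at -2.98 ± 0.06 and the transcription factor Mitf at -1.45 ± 0.08. The summed level of 5 pigment cell markers, 4 of them above background, was 222 to 265 in knockout and 917 to 960 in wild type cells with TGF-β1, and 3283 to 3721 in knockout and 2381 to 2569 in wild type cells with vehicle. With vehicle the sum was mostly Mlana, 0.54 higher in knockout cells, where Lrmda was lower. Tyr, Dct and Pmel stood at -0.17, -0.15 and -0.12 with vehicle and did not pass. Its part in the Lrmda result was not tested.

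Endothelial and epithelial markers were examined likewise. The sum of 8 endothelial markers was 714 to 833 in knockout and 1292 to 1309 in wild type cells with TGF-β1, and 2484 to 2673 in knockout and 3040 to 3202 in wild type cells with vehicle. Of 7 epithelial markers the defining factor Nkx2-1 was below background on all arrays, and the sum was 9469 to 10406 in knockout and 9686 to 10471 in wild type cells with TGF-β1. With vehicle it was 5569 to 5792 in knockout and 5918 to 6784 in wild type cells, without overlap.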

How the data were processed

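Arrays of 16 samples were read from the deposited files. Their spot intensity values, linear and background-subtracted, were made with Agilent Feature Extraction 11.0.1.1, per the file headers and the submitters' processing notes. A further deposited file by the authors lists log2 values for 9933 probes (correlation with log2 intensity 0.999 or above; higher is brighter; not centred per probe). Its normalization and probe choice are not stated, and it was an alternative only.

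The 59305 non-control spots (56605 probes) were log2 transformed, averaged per probe and scaled to a common 75th percentile. Probes with outlier marks (27) were dropped, and 33888 probes well above background throughout at least 1 group of 4 were kept. Unversioned transcript accessions matched RefSeq of GRCm38.p6 for 32994 probes; as the design used mm9, that reference gave only names, gene order and promoters. The brightest kept probe represented each of 15394 genes.

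The tests used limma (version 3.58.1; R 4.3.3; package data.table, version 1.17.8) with a mean per group over 16 arrays, 2-sided, adjusted by Benjamini-Hochberg over 15394 genes in 5 comparisons, with a threshold of 0.05. The fit was tested on simulated data. A bound sets the bright group's mean against the dim signal or, if higher, the lowest signal well above background, array by array. Genes to name were Islr, the 10 genes, their lists, 5 neighbours a side, and up to 15 genes with gaps of at least 1 log2 unit under both treatments and an interaction interval within 0.5. The genes and lists were chosen with earlier results of these data known. Alternatives were normexp (offset 50), quantile normalization, the authors' values, no probe filter, the mean over probes, slide, replicate block, 2-group fits and leaving out each array.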

Additional observations from a re-analysis of the deposited data

Results flagged for a closer look

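The genotype gap differed between treatments by its own test (limma interaction, Benjamini-Hochberg adjustment) in 6 of the 10 genes. The gap with TGF-β1 minus that with vehicle was 1.14 for Clec1b, 0.969 for Tmem254a, 0.858 for Tmem254c, 0.687 for Wdfy1, 0.658 for Plac9a and 0.491 for Entpd4, in log2 units. The vehicle arrays entered both these tests and the choice of the genes. On the probe standing for Wdfy1 the gap was near 0 with vehicle, and on another Wdfy1 probe its sign turned (0.39 with TGF-β1 and -0.25 with vehicle); for the other 5 genes it was smaller with TGF-β1.

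Single arrays stood apart in 2 groups, where the lowest value's distance to the next, as a share of the group's range, exceeded Dixon's 95% critical value for 4 samples. It was 0.875 for Plac9a in knockout cells with TGF-β1 (11.72 against 11.90 to 11.93) and 0.907 for Lrmda in wild type cells with TGF-β1 (10.07 against 10.13 to 10.14). Chance marks about 1 in 20 groups, so with 10 genes in 4 groups each, marks like these can arise by chance.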

How the results depend on the processing

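Under all alternatives tried, leaving out single arrays included, the interaction passed for Plac9a, Tmem254a, Tmem254c, Wdfy1 and Clec1b with the same sign, as it did for Entpd4, which the value table lacks. Among the authors' deposited values, 3617, 3351, 3700 and 4017 of 4186 genes passed between genotypes with TGF-β1, for the interaction, and for TGF-β1 in wild type and in knockout cells, and 12 of 22 neighbours passed between genotypes. Within slide 1, 31 of 69 neighbours and 5620 interactions passed. The interaction of Lrmda was 0.051 with normexp. The TGF-β1 change of Duxbl2 in wild type cells was 0.086 with normexp, 0.11 with quantile normalization, 0.11 in the value table and -0.11 to 0.050 without single arrays, against -0.05. That of Entpd4 was -0.025 with normexp, -0.11 with quantile normalization (adjusted p = 0.00863), -0.023 as a mean over probes and -0.0023 to 0.033 without single arrays, against 0.02. That of Ide was 0.053 in wild type and 0.15 in knockout cells (adjusted p = 0.0174) as a mean over probes, 0.0017 in knockout cells within slide 1 and -0.035 to 0.012 without single arrays. That of Efcab7 in knockout cells was -0.019 within slide 2 and -0.091 to 0.39 without single arrays. The causes were not tested. Efcab7 passed between genotypes with TGF-β1 under normexp (0.20), quantile normalization (0.54), the value table (0.53) and the mean over probes (0.51).

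Over the 4186 genes of the value table the median was -0.36 for the TGF-β1 gap and -0.20 for the interaction. Over all 15394 genes of the main fit it was 0.06 and 0.05. The medians cover different sets of genes and are not a like comparison. Its column medians were 6.391, 6.38, 6.388 and 6.381 for knockout and 6.473, 6.466, 6.493 and 6.469 for wild type with TGF-β1, and 6.586, 6.593, 6.567 and 6.58 for knockout and 6.595, 6.598, 6.615 and 6.609 for wild type with vehicle. Same-numbered arrays correlated in their deviations at -0.034 to 0.218, with a median of 0.077. Differently numbered arrays of the same slide gave -0.047 to 0.135, with a median of 0.051. Such weak correlations cannot decide whether the numbers pair the samples. With the replicate block 7 of 10 interactions passed, Duxbl2 being added (0.40, adjusted p = 0.0447). Signal near background limits Duxbl2 and the spread of 1 array Efcab7.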
